A study of Rattus norvegicus with 20 samples.

Results

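The endocannabinoid genes considered here are the cannabinoid receptor Cnr1 and 6 enzymes that make or remove its ligands, Faah, Mgll, Dagla, Daglb, Napepld and Abhd6. Members were found by gene symbol in the platform's annotation of an Affymetrix rat array. This gave 12 probe sets of 31099, for 5 of the 7 genes. Mgll has 4 probe sets, and Cnr1, Faah, Daglb and Abhd6 have 2 each. The Faah probe sets carry that symbol under 2 gene identifiers, of which 1 is in the RefSeq table, and were counted as 1 gene. Without them 10 probe sets name a single identifier. No probe set is named for Dagla or Napepld in that annotation, and neither was analysed here.

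The arrays measured RNA from the accumbens shell, a reward region of the ventral striatum, in alcohol-preferring (P) rats, a line selectively bred for high ethanol drinking. Animals of the ethanol group (n = 10) could drink ethanol at 15 and 30% during adolescence in a binge-like pattern, and animals of the water group (n = 10) had water only. All 20 animals shared the P background and the tissue, and each gave 1 array. The sources used here do not state sex, exact age or the time between drinking and dissection. The comparison asks whether transcripts of the endocannabinoid system differed between drinking and non-drinking animals of this line.

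Endocannabinoids are lipids that neurons make on demand and that act backwards across the synapse. The main one in brain, 2-arachidonoylglycerol, is made from diacylglycerol by the lipases Dagla and Daglb. Mgll hydrolyses most of it at the presynaptic side, and Abhd6 hydrolyses a further share on the postsynaptic side. The other classical endocannabinoid, anandamide, can be made through Napepld and is broken down by Faah. Both act on the CB1 receptor, encoded by Cnr1, which inhibits transmitter release. In the striatum CB1 is made by medium spiny neurons, the GABAergic projection neurons that form most of the tissue, by some interneurons and by incoming cortical axons, whose mRNA stays in the cortex.

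Values are the deposited log2 values, so a difference of 1 is a 2-fold change. Array medians lay between 7.94 and 7.97 in ethanol and between 7.93 and 7.98 in water. The tissue label was checked against 20 listed markers of medium spiny neurons. Of these, 19 have a probe set above the lower limit of brightness used here, and 1 has no named probe set. Water animals 17, 19 and 20 stood apart in these markers, with list means of 11.92, 12.14 and 11.63, against 12.40 to 13.08 in ethanol and 12.67 to 13.06 in the other water animals. Their median correlations with the other arrays were 0.980, 0.988 and 0.972. Water animal 12 was also low, at 0.982, while all others lay at 0.989 or above. Results that rest on animals 17, 19 and 20 are therefore given with and without them. These animals were picked for their low marker means, so without them the water mean of any gene that follows those markers is higher by construction. Because whole tissue was measured, fewer cells of a type and less RNA per cell cannot be told apart.

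None of the 12 probe sets differed between ethanol and water at an adjusted p of 0.05 (limma, Benjamini-Hochberg over 20695 probe sets). Over all probe sets tested 20 passed, or 0.0966%. At an unadjusted p under 0.05 the count was 2 of 12, for the Mgll probe set 1375355_at and the Daglb probe set 1382440_at, while 12.1% of all probe sets reached that level. All 12 had passed the filter on brightness. Differences ran from -0.09 for a Faah probe set to 0.22 for an Mgll probe set, which is 0.942-fold to 1.16-fold. Of the 12 differences 11 were positive, beside 50.0% of all probe sets tested. Probe sets of the same gene are not separate evidence, and Mgll has 4 here and each other gene 2. The count also rests on water animals 17, 19 and 20. Without them Mgll 1370831_at, 1388644_at and 1375247_at were at -0.0031, -0.0060 and -0.07. Abhd6 1390155_at and 1380332_at were then at -0.04 and -0.16, and Faah 1368717_at at -0.02. The remaining probe sets of the 12 stayed positive.

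**Figure D1:**
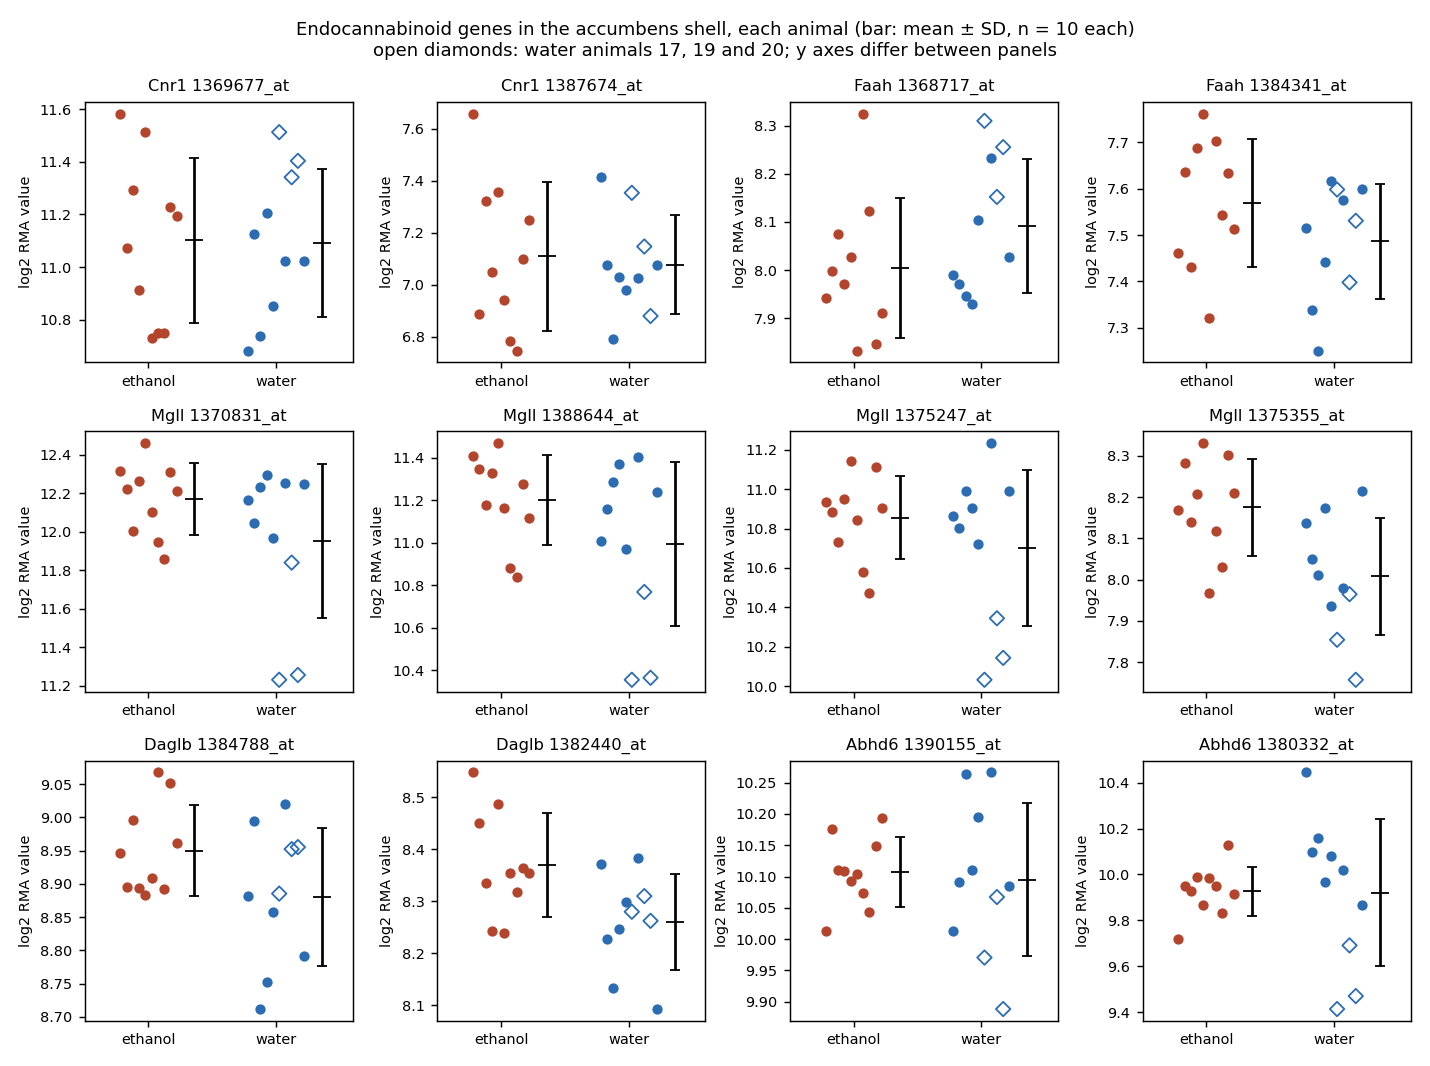
Log2 RMA values of the 12 probe sets in each animal, ethanol left and water right, with bars for mean ± SD (n = 10 each). Groups overlap in every panel, and the open diamonds (water animals 17, 19 and 20) are low for Mgll and high for the Cnr1 probe set 1369677_at.

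**Figure D2:**
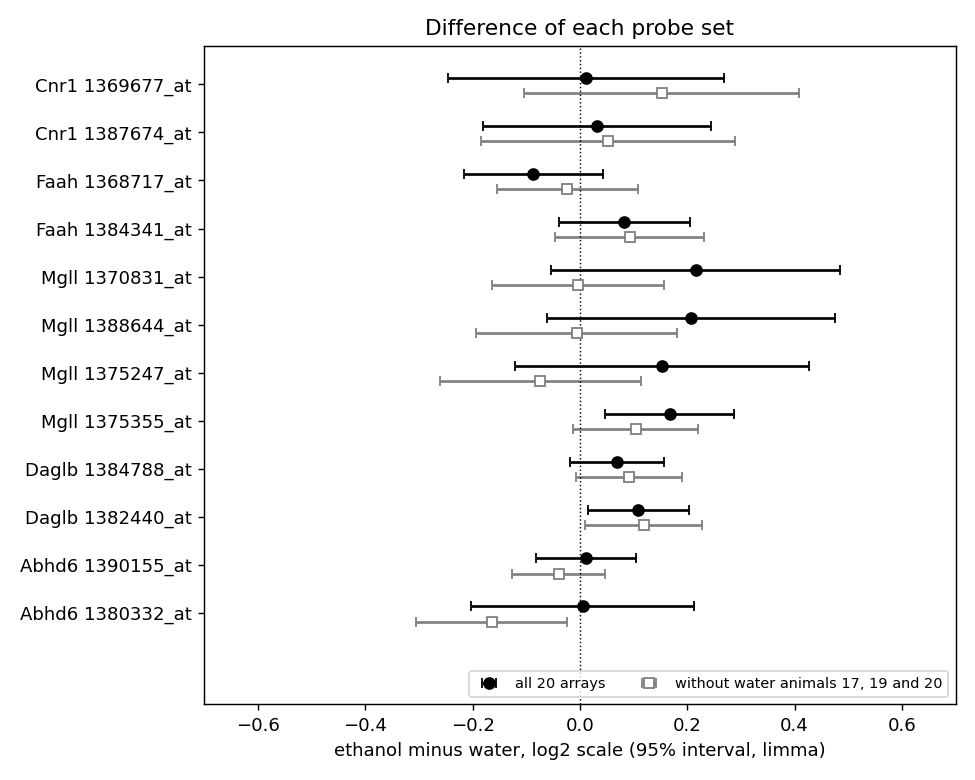
Ethanol minus water difference of each probe set on the log2 scale with its 95% interval from limma, over all 20 arrays (black) and without water animals 17, 19 and 20 (grey). The 3 brighter Mgll probe sets lie at 0.15 to 0.22 over all arrays and between -0.07 and 0.00 without those animals, and the Daglb probe sets lie at 0.07 to 0.12 in both.

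Cnr1, the CB1 receptor gene, had nearly equal means in the groups. Its brighter probe set, 1369677_at, ran from 10.73 through a median of 11.13 to 11.58 in ethanol, against 10.68, 11.08 and 11.51 in water. The means were 11.10 ± 0.31 in ethanol and 11.09 ± 0.28 in water (SD, n = 10 each), and the groups covered nearly the same range. The difference was 0.01, with a 95% interval of -0.25 to 0.27, or 0.843-fold to 1.21-fold (limma, adjusted p = 0.977). Ethanol animals lay above the water mean in 5 of 10 cases. The dimmer probe set 1387674_at ran from 6.75 through 7.07 to 7.66 in ethanol, against 6.79, 7.05 and 7.41 in water, again with overlap. It differed by 0.03 (interval -0.18 to 0.24, adjusted p = 0.917), from 7.11 ± 0.29 in ethanol and 7.08 ± 0.19 in water.

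The spread of Cnr1 between ethanol animals was large for this table. The SD of 1369677_at stood at percentile 98.2 of the probe sets tested in ethanol and 86.3 in water, and that of 1387674_at at 97.5 in ethanol and 65.1 in water. Ethanol animals 1 and 5 were highest at 1369677_at, with 11.58 and 11.51, and animals 6, 7 and 8 were lowest, with 10.73, 10.75 and 10.75. The highest water values, 11.51, 11.34 and 11.40, belonged to animals 17, 19 and 20. Without those 3 animals the difference was 0.15 (interval -0.10 to 0.41, limma, adjusted p = 0.667).

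In ethanol the Cnr1 probe sets followed each other across animals (r = 0.91, Spearman rho 0.89, n = 10). The adjusted p-values were 0.0075 for r and 0.0327 for rho, by permutation over 120 relations, and r was 0.86 without the 2 animals farthest from the median. In water without animals 17, 19 and 20 r was -0.17 and did not pass (exact permutation, adjusted p = 0.959, n = 7), and r was 0.57 without the 2 farthest animals there. In that group water animal 12 had the lowest value at 1369677_at, 10.68, and the highest at 1387674_at, 7.41. The difference between the groups' correlations was not tested.

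**Figure D3:**
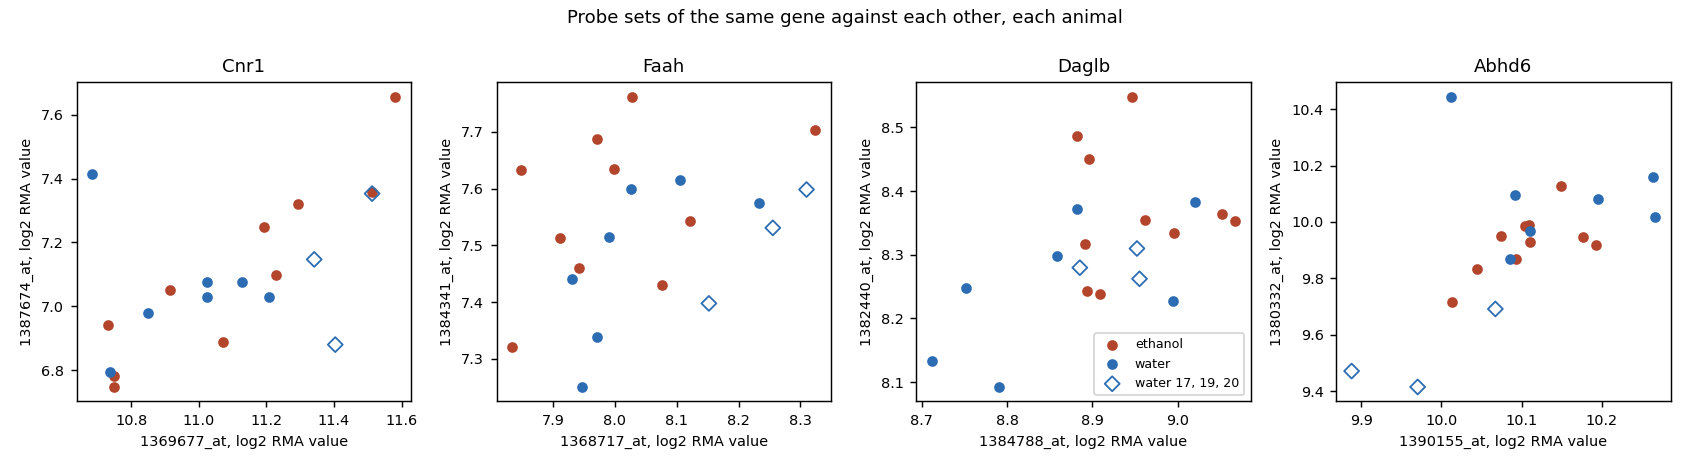
Values of the brighter probe set (x axis) and the dimmer probe set (y axis) of Cnr1, Faah, Daglb and Abhd6 in each animal, in log2 RMA units. Cnr1 lies along a line in ethanol, with water animal 12 at the upper left, and the same animal is highest at the dimmer Abhd6 probe set.

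Mgll encodes monoacylglycerol lipase, the main enzyme that ends signalling by 2-arachidonoylglycerol. All its probe sets had higher means in ethanol, and none passed. Probe set 1370831_at ran from 11.86 through a median of 12.22 to 12.46 in ethanol, against 11.23, 12.11 and 12.30 in water. The groups overlap, and water animals 17, 19 and 20 hold the low end of the water range, while the remaining 7 ran from 11.97 to 12.30. The means were 12.17 ± 0.19 in ethanol and 11.95 ± 0.40 in water (SD, n = 10 each), a difference of 0.22 ± 0.13 (SE). The 95% interval ran from -0.05 to 0.49, or 0.963-fold to 1.40-fold (limma, adjusted p = 0.495).

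Probe set 1388644_at ran from 10.84 through 11.23 to 11.47 in ethanol, against 10.35, 11.08 and 11.40 in water. Probe set 1375247_at ran from 10.47 through 10.89 to 11.14 in ethanol, against 10.03, 10.83 and 11.23 in water. Both had lower minima in water and overlapping upper ends. They differed by 0.21 (interval -0.06 to 0.48) and 0.15 (interval -0.12 to 0.43), with adjusted p-values of 0.512 and 0.632 in limma. Water animals 17, 19 and 20 were lowest in the water group at each of these 3 probe sets. At 1370831_at they had 11.23, 11.84 and 11.26, and the next water value was 11.97. Without them the differences were -0.0031, -0.0060 and -0.07 for 1370831_at, 1388644_at and 1375247_at (limma, adjusted p = 0.992, 0.987 and 0.788).

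The dimmest Mgll probe set, 1375355_at, kept a positive difference. It ran from 7.97 through 8.19 to 8.33 in ethanol, against 7.76, 7.99 and 8.21 in water, and 9 of 10 ethanol animals lay above the water mean. The difference was 0.17 ± 0.06 (SE), with an interval of 0.05 to 0.29 (limma, unadjusted p = 0.00854, adjusted p = 0.307). Without water animals 17, 19 and 20 it was 0.10 (interval -0.01 to 0.22, adjusted p = 0.487). The test of 1370831_at against it did not pass. That difference was 0.05 over all arrays (interval -0.16 to 0.26, permutation, adjusted p = 0.95 over 10 pairs) and -0.11 without the 3 animals (interval -0.23 to 0.02, adjusted p = 0.218).

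The 3 brighter Mgll probe sets followed one another across ethanol animals, with r between 0.88 and 0.96 (permutation, adjusted p = 0.0242 at most, n = 10). Their SDs were 0.19 to 0.21 in ethanol and 0.39 to 0.40 in water. Without water animals 17, 19 and 20 the order turned, with SDs of 0.12 to 0.17 in the remaining 7 water animals. Those animals were picked for low marker means, so without them the water SD of a gene that follows those markers is lower by construction. Over all probe sets the median SD was 0.107 in ethanol and 0.157 in water, or 0.132 in water without those animals.

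Across animals Mgll followed the medium spiny neuron markers, a list that does not hold Mgll. In ethanol r between 1370831_at and the list mean was 0.95 (Spearman rho 0.98, n = 10), with permutation-adjusted p-values of 6e-04 for r and 0.0024 for rho. Without the 2 animals farthest from the median r was 0.94. In water without animals 17, 19 and 20, r was 0.72 and rho 0.82 (exact permutation, adjusted p = 0.306 and 0.205, n = 7), and r was 0.98 without the 2 farthest animals. Water animals 17, 19 and 20 lay at the low end of both measures. These animals were picked for low means of this list, so leaving them out narrows its range in water by construction. Over all 10 water animals r was 0.95, which was not tested. With the list mean as a covariate in limma, the 1370831_at difference was -0.0045 (interval -0.11 to 0.10, adjusted p = 0.983). In that fit the dimmest Mgll probe set, 1375355_at, kept a difference of 0.099 (interval 0.0013 to 0.197, limma, unadjusted p = 0.0472, adjusted p = 0.487). Whether marker content accounts for the Mgll difference was not tested.

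Mgll also ran against the oligodendrocyte list in ethanol (r = -0.84, permutation, adjusted p = 0.0242, n = 10), where rho was -0.76 and did not pass (adjusted p = 0.181). Without the 2 farthest animals that r was -0.57. These were the 2 relations that passed of 40 between a member and a cell type list in ethanol. In water without animals 17, 19 and 20, 0 of 40 passed. Lists of under 3 measured markers were not used for these relations. The share of all genes that would pass against the same lists was not computed, so these relations are not shown to be particular to Mgll. Over all 10 water animals r of Mgll with the oligodendrocyte list was -0.80, which was not tested.

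**Figure D4:**
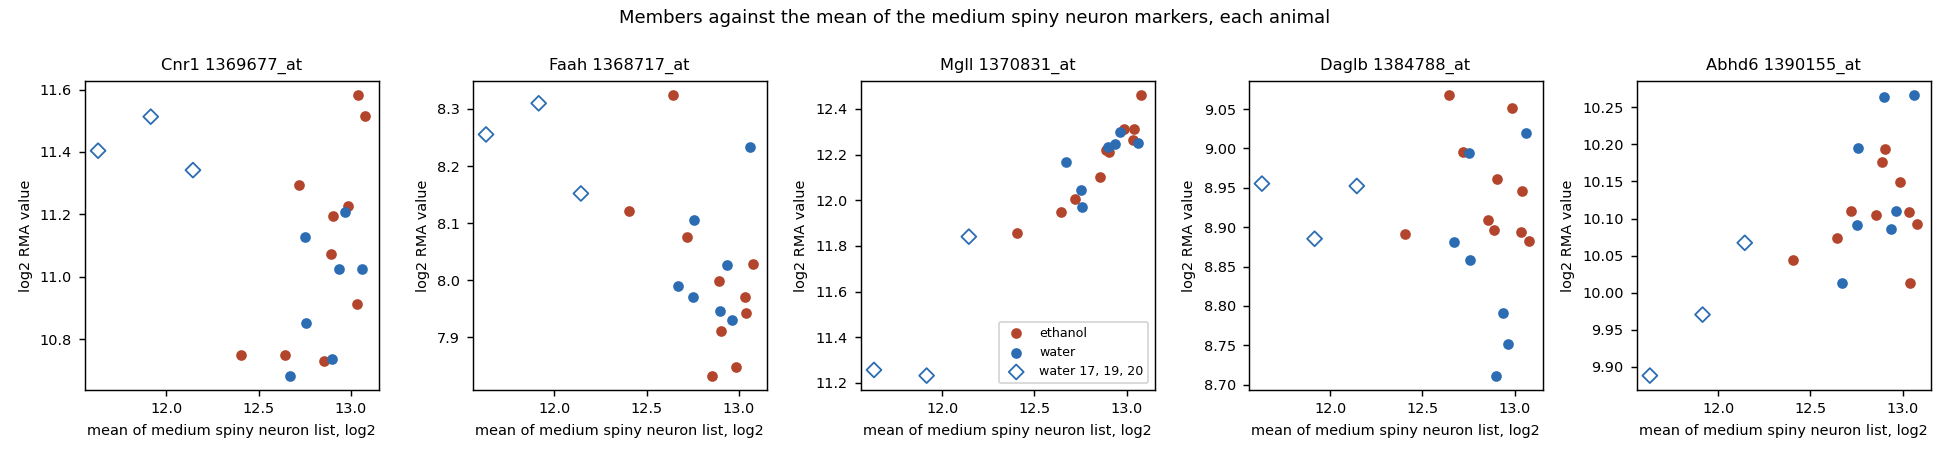
Log2 RMA values of the brightest probe set of each member (y axis) against the mean of 19 medium spiny neuron markers (x axis) in each animal. Mgll lies along the list mean, while Cnr1 is high in water animals 17, 19 and 20, whose list means lie between 11.63 and 12.14.

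Daglb, a diacylglycerol lipase that makes 2-arachidonoylglycerol, was slightly higher in ethanol at both probe sets, and neither passed. Probe set 1384788_at ran from 8.88 through 8.93 to 9.07 in ethanol, against 8.71, 8.88 and 9.02 in water. All 10 ethanol animals lay above the water mean of 8.880, though the lowest was at 8.882, and 9 lay above the water median. The ranges overlap. The difference was 0.07 ± 0.04 (SE), with an interval of -0.02 to 0.16 (limma, adjusted p = 0.502). Probe set 1382440_at ran from 8.24 through 8.35 to 8.55 in ethanol, against 8.09, 8.27 and 8.38 in water. It differed by 0.11 ± 0.05 (interval 0.01 to 0.20, unadjusted p = 0.0258, adjusted p = 0.368).

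The Daglb differences were 0.09 and 0.12 without water animals 17, 19 and 20 (limma, adjusted p = 0.478 and 0.412). Averaged over its probe sets, Daglb differed by 0.09 (interval 0.01 to 0.16, unadjusted p = 0.0235, adjusted p = 0.411). The interval of 1384788_at has its upper bound at 1.12-fold and that of 1382440_at at 1.15-fold. Across ethanol animals r between the probe sets was -0.02 (permutation, adjusted p = 0.997, n = 10), and 0.27 without the 2 farthest. In water without animals 17, 19 and 20 it was 0.63 (exact permutation, adjusted p = 0.413, n = 7). The test of the difference between them gave -0.04 (interval -0.14 to 0.06, permutation, adjusted p = 0.95).

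Abhd6, a serine hydrolase that also degrades 2-arachidonoylglycerol, had close means in the groups. Probe set 1390155_at ran from 10.01 through 10.11 to 10.19 in ethanol, against 9.89, 10.09 and 10.27 in water. The ethanol values lie inside the water range. The difference was 0.01, with an interval of -0.08 to 0.10, or 0.945-fold to 1.08-fold (limma, adjusted p = 0.932). Probe set 1380332_at averaged 9.93 ± 0.11 in ethanol and 9.92 ± 0.32 in water (SD, n = 10 each). Its water values ran from 9.41 in animal 17 through a median of 9.99 to 10.44 in animal 12. Ethanol values ran from 9.72 through 9.94 to 10.13. Of the 10 ethanol animals 6 lay above the water mean, but 1 above the water median. Without water animals 17, 19 and 20 this probe set differed by -0.16 (interval -0.31 to -0.02), which did not pass (limma, unadjusted p = 0.0245, adjusted p = 0.377).

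The promoters of Mgll and Abhd6 are shown because these enzymes share a substrate, 2-arachidonoylglycerol. For Abhd6 1390155_at, r with the projection neuron markers was 0.25 in ethanol (permutation, adjusted p = 0.855, n = 10). In water without animals 17, 19 and 20 it was 0.57 (exact permutation, adjusted p = 0.486, n = 7). Whether these values differ from those of Mgll was not tested. The sequences are from RefSeq, build GRCr8, 250 bases before to 50 after the gene start. They are written 5′ to 3′, and capitals mark matches on either strand to TGACG (the core of a cAMP response element), GGGCGG (a GC box), CACGTG (an E-box), CCAAT and TATAAA. Of the 7 genes, 5 have a promoter in the table. The Mgll window is chr4:122749186-122749485 on the plus strand and that of Abhd6 is chr15:19337144-19337443 on the minus strand.
Mgll: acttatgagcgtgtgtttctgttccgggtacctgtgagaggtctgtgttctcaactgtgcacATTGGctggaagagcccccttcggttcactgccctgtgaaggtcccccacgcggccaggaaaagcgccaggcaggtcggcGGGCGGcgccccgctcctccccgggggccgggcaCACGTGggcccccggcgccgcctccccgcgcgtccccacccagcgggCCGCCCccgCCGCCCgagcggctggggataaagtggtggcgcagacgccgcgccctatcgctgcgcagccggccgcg
Abhd6: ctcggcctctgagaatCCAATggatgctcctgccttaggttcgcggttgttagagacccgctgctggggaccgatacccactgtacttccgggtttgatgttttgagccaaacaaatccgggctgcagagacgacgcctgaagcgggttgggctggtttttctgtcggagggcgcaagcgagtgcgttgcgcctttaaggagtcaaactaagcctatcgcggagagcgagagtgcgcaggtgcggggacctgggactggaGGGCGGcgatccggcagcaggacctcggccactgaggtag

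The Mgll promoter holds 3 GC boxes, 1 E-box and 1 CCAAT match, and 72.3% of its bases are G or C. Abhd6 has 1 GC box and 1 CCAAT match, with 60.3% G or C. Of 33469 promoters of this length 33.1% hold a GC box, 6.42% the E-box, 37.5% CCAAT, 21.2% TGACG and 14.2% TATAAA, and the median G and C content is 51.7%. TGACG and TATAAA are in neither of the printed windows. A match describes the letters and is no evidence of a bound factor.

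Faah encodes fatty acid amide hydrolase, which ends signalling by anandamide. Its probe sets differed in sign. Probe set 1368717_at ran from 7.83 through 7.98 to 8.32 in ethanol, against 7.93, 8.07 and 8.31 in water, and 2 of 10 ethanol animals lay above the water mean. The difference was -0.09 (interval -0.22 to 0.04, limma, adjusted p = 0.565). Probe set 1384341_at ran from 7.32 through 7.59 to 7.76 in ethanol, against 7.25, 7.52 and 7.62 in water, a difference of 0.08 (interval -0.04 to 0.20, adjusted p = 0.557).

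The differences of the Faah probe sets lay apart by -0.17 (interval -0.30 to -0.04), which did not pass over the 10 pairs tested (permutation, unadjusted p = 0.0161, adjusted p = 0.161). Without water animals 17, 19 and 20, whose 1368717_at values of 8.31, 8.15 and 8.26 are among the 4 highest in water, that value was -0.12 (adjusted p = 0.218). The mean over both probe sets differed by -0.0020 (interval -0.11 to 0.11). In ethanol 1368717_at ran with the oligodendrocyte list (r = 0.68) and against the medium spiny neuron list (r = -0.61), and neither relation passed (permutation, adjusted p = 0.234 and 0.282, n = 10). Without the 2 farthest animals those r values were 0.22 and -0.17. With the microglia list r was 0.68 and rho 0.72, which did not pass (permutation, adjusted p = 0.234 and 0.183, n = 10), and r was 0.89 without the 2 farthest.

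Responses of different members were then set against each other, by the brightest probe set of each. None of the 10 pairs passed (permutation tests of the within-animal difference, 100000 resamples, two-sided). The smallest p belonged to Faah against Daglb, whose differences of -0.09 and 0.07 lay 0.16 apart (interval of Faah minus Daglb -0.28 to -0.03, unadjusted p = 0.0153, adjusted p = 0.153). The hydrolases of 2-arachidonoylglycerol, Mgll and Abhd6, lay 0.20 apart (interval -0.04 to 0.45, adjusted p = 0.438), and 0.04 apart without water animals 17, 19 and 20 (interval -0.14 to 0.22). Mgll minus Daglb, removal against synthesis, was 0.15 (interval -0.18 to 0.48, adjusted p = 0.531), and -0.09 without those animals (interval -0.31 to 0.12). Across animals no pair of members passed in either group. Cnr1 and Mgll had r = 0.71 in ethanol (permutation, adjusted p = 0.198, n = 10). Outside those relations, water animals 17, 19 and 20 held the 3 highest Cnr1 and the 3 lowest Mgll values of their group at these probe sets. At the dimmer Cnr1 probe set, 1387674_at, they had 7.35, 7.15 and 6.88, inside the range of 6.79 to 7.41 of the other water animals.

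Genes around the pathway were read from 4 lists by role, using the brightest probe set of each gene. Of 37 genes measured 0 rose and 0 fell at an adjusted p of 0.05 in limma, beside 0.093% called among all 10750 genes. None had an unadjusted p under 0.05, a level that 12.1% of all 20695 probe sets reached. Of 13 other receptors and binding proteins listed, 6 were measured, all of them binding proteins and none a receptor. Of these, 5 were lower, with a median difference of -0.07. The smallest p-values there belonged to Cnrip1, a protein that binds the CB1 tail (-0.06, adjusted p = 0.683), and Fabp7, a fatty acid carrier of astrocytes (-0.09, adjusted p = 0.685). Without water animals 17, 19 and 20 that median was 0.04, with 2 of 6 lower.

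Other enzymes of these lipids had a median difference of -0.00045 over 9 genes, with Plaat1 at -0.10 and the lysophospholipase D Gdpd1 at 0.04 (adjusted p = 0.637 and 0.639). Receptors and partners of the Gq pathway, which supplies diacylglycerol, had a median of 0.06 over 11 genes, 8 of them positive. Gnaq, the Gq alpha subunit, differed by 0.24 (interval -0.0013 to 0.48, adjusted p = 0.413) and Homer1, a scaffold that ties receptors to the lipase, by 0.21 (adjusted p = 0.488). Without the 3 water animals this median was -0.0018. Effectors of CB1 had a median of 0.01 over 11 genes, with the G protein subunit Gnao1 at 0.10 and the arrestin Arrb2 at -0.15 (adjusted p = 0.49 and 0.536). The median over all genes was 0.00015.

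**Figure D5:**
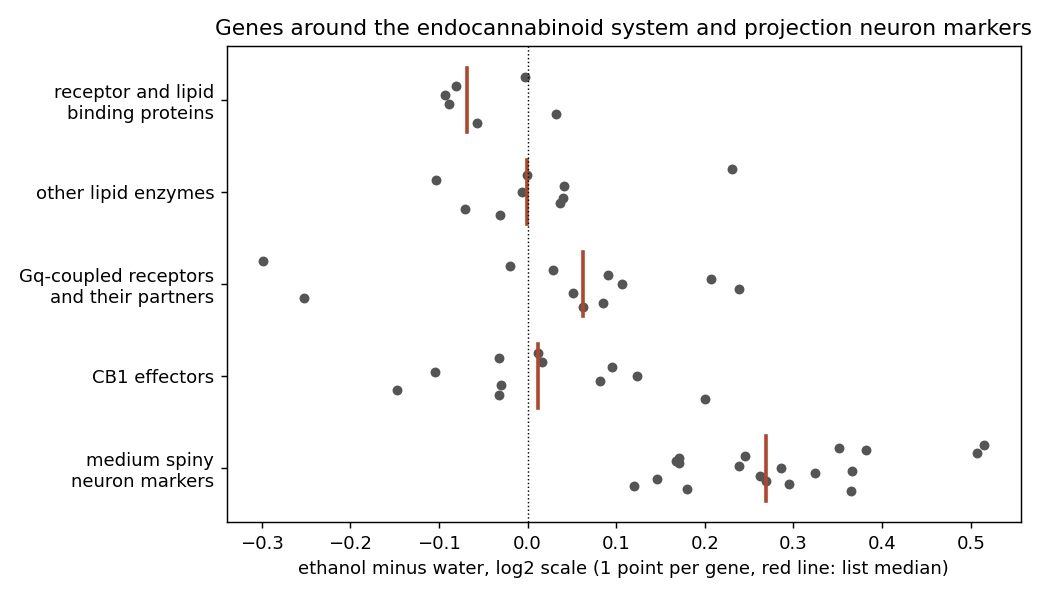
Ethanol minus water difference on the log2 scale of each gene (points) in 4 lists around the endocannabinoid pathway and in the medium spiny neuron list, with list medians in red. The pathway lists have medians between -0.07 and 0.06, and all 19 projection neuron markers lie above 0, with a median of 0.27.

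No gene was called in any cell type list. All 19 medium spiny neuron markers were positive (median 0.27). The smallest p-values belonged to Rgs9 at 0.35 and Rasgrp2 at 0.38 (limma, adjusted p = 0.394 and 0.409). Without water animals 17, 19 and 20, 7 of 19 were positive and the median was -0.02. All 13 oligodendrocyte markers were negative (median -0.15), with Sox10 at -0.25 and Myrf at -0.24 (adjusted p = 0.365 and 0.45), and 8 of 13 were negative without those animals (median -0.01). List means ran from 11.11 to 12.03 in ethanol and from 11.10 to 12.05 in water for oligodendrocytes, which were high in water animals 17, 19 and 20 at 12.05, 11.89 and 11.90. The septum and pallidum list, for neighbouring regions, was also high in those 3 animals, at 8.34, 8.09 and 8.57, against 7.61 to 7.99 in ethanol and 7.60 to 7.94 in the other water animals. Medians were -0.0074 for interneurons (Npy 0.14, Calb2 -0.25), 0.03 for cholinergic neurons (Isl1 0.13, Gbx2 -0.40) and -0.02 for cortical excitatory neurons (Rorb -0.12, Neurod2 0.09). They were -0.10 for septum and pallidum (Zic2 0.15, Trpc4 -0.32) and -0.03 for astrocytes (Gfap -0.36, Fgfr3 -0.12). For microglia the median was -0.08 (Tmem119 -0.15, Aif1 -0.14) and for vessels 0.06 (Egfl7 0.18, Tie1 0.20). The genes named are the 2 of smallest p in each list and do not stand for all of it. Differences were negative for 6 of 9 astrocyte and 8 of 10 microglia markers, and positive for 7 of 9 vessel markers. Without water animals 17, 19 and 20 all 5 interneuron markers were positive (median 0.14, 2 of 5 positive over all arrays), as were all 5 of septum and pallidum (median 0.07, 1 of 5 positive over all arrays). Without them the medians were 0.02 for cholinergic and 0.02 for cortical neurons, -0.01 for astrocytes, -0.03 for microglia and 0.09 for vessels, again with no gene called.

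For these lists too the groups overlapped. List means ran from 9.91 to 10.77 in ethanol and 9.71 to 10.88 in water for interneurons, from 8.11 to 8.60 in ethanol and 8.01 to 8.62 in water for cholinergic neurons, and up to 8.57 in ethanol and 8.62 in water for cortical neurons. They ran from 11.38 to 11.67 in ethanol and 11.37 to 11.82 in water for astrocytes, and from 8.72 to 8.94 in ethanol and 8.70 to 9.18 in water for microglia. For vessels they ran from 8.42 to 8.71 in ethanol and 8.41 to 8.58 in water. The part of these shifts in the members' differences was not tested.

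Genes with the most similar pattern were named for each member by Pearson r over the 20 arrays, after centring within treatment. These values are a description, since each gene was picked for its r among all genes. For Cnr1 they were Garnl3 (r = 0.92), the mitophagy receptor Bnip3 (0.91) and the potassium channel Kcna2 (0.91), and the same 3 genes led without water animals 17, 19 and 20 (0.92, 0.94 and 0.88). For Mgll they were Tmem41a (0.97), the mineralocorticoid receptor Nr3c2 (0.97) and Tac1 (0.97), the substance P precursor of direct-pathway projection neurons and a member of the marker list. Without the 3 animals Tmem41a (0.92) remained, and Pitpnc1 (0.93) and Rgs7bp (0.92) came in.

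For Faah the leading genes were Mtg1 (0.88), the mitochondrial deubiquitinase Usp30 (0.86) and Fdps (0.85), an enzyme of sterol synthesis. Mtg1 and Usp30 remained without the 3 animals (0.85 and 0.83), and Ciao2b came in (0.85). For Abhd6 they were Zfhx2 (0.86), the splicing factor Cdc40 (0.86) and Mios (0.85), of which Zfhx2 remained (0.85), with Gnpda2 (0.86) and Cnih4 (0.84) beside it. Daglb had the loosest neighbours, Asb6 (0.73), the glycine receptor subunit Glra2 (0.72) and Amer3 (0.69). Without the 3 animals they were Glra2 (0.77), C1h10orf88 (0.77) and Adrm1 (0.76). None of these similar genes passed between ethanol and water (limma, adjusted p between 0.274 for Amer3 and 0.996 for Garnl3).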

How the data were processed

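The authors deposited log2 values, 1 column per animal, made with RMA per the submitters' processing notes. RMA corrects background, normalizes between arrays and summarises each probe set, which shrinks differences of dim probe sets. The sources used here give no software, version or chip definition for it. Per the labels' protocols, cRNA was labelled from the 3′ end from 50 ng of RNA.

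Control probe sets and the 33.3% of probe sets with the lowest means (below 6.65) were left out. Groups were compared with limma 3.58.1 under R 4.3.3 (two-sided, eBayes after lmFit, without covariates), with Benjamini-Hochberg adjustment over 20695 probe sets. Pairs and correlations used permutation tests of 100000 resamples (exact for n = 7), adjusted within each family. Correlations were tested within ethanol and within water without animals 17, 19 and 20. Samples were grouped by the treatment label. All 20 arrays were used, and none of them is labelled animal 11. Named genes are all members, the 2 genes of smallest p per list, and the 3 of highest r per member, predicted loci left out. Members, lists and alternatives were chosen with earlier results of these data known. The fit and the permutation test were tested on simulated data. The number of arrays limits the precision.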

Additional observations from a re-analysis of the deposited data

How the results depend on the processing

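No member probe set was called under any of the 13 alternative fits (the median filter removed 1387674_at and 1384341_at), while the count over all probe sets was 20 in the reported fit, 10 with a brightness filter at the median, 38 with array weights, 8 with the 3′ minus 5′ value of the control probe sets as a covariate, 47 with the medium spiny neuron mean as a covariate and 50 without water animals 17, 19 and 20. The 3′ minus 5′ value ran from 1.03 to 1.35 in ethanol and from 0.999 to 1.46 in water. No member or pair difference had passed to begin with, so every turn of sign below is in a difference that did not pass. With the medium spiny neuron covariate, Mgll 1370831_at, 1388644_at and 1375247_at were at -0.0045, -0.013 and -0.071, and without water animals 17, 19 and 20 at -0.0031, -0.0060 and -0.074. Abhd6 1390155_at was at -0.024 with array weights, -0.039 with the medium spiny neuron and -0.014 with the oligodendrocyte covariate, and at -0.040 without animals 17, 19 and 20 and -0.048 without 12, 17 and 20. Abhd6 1380332_at was at -0.033, -0.115, -0.067, -0.164 and -0.057 in the same settings. Cnr1 1369677_at was at -0.035 without water animals 12 and 13. Between pairs, leaving out animals 17, 19 and 20 turned Cnr1 1369677_at minus 1387674_at (0.100), Mgll 1370831_at and 1388644_at minus 1375355_at (-0.107 and -0.110), Cnr1 minus Mgll (0.155), Cnr1 minus Daglb (0.061), Faah minus Abhd6 (0.016) and Mgll minus Daglb (-0.094). The cause was not tested. List and SD values without those animals were added after seeing the data.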
